A study of Mus musculus with 7 samples.

Results

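The genes described here are coding genes with a row in the authors' array table whose Gene Ontology annotation names an immune, inflammatory, antigen processing, chemotaxis, antiviral or interferon process. A gene was a member if any of its biological process terms contained "immune", "inflammatory", "antigen processing", "chemotaxis", "response to virus" or "interferon" and none contained "steroid" or "sterol". A row with several symbols was taken under its first, and no gene entered more than 1 time. This gave 133 genes of the 3997 coding genes in the table. The rule left out *Lipa*, *Il1a* and *Ephx2*, which also carry a steroid or sterol term.

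Tubule RNA, from testes freed of the tunica albuginea, was taken from 4 *Ctcf*-cKO and 3 wild-type mice and hybridized to GeneChip mouse transcriptome arrays. In *Ctcf*-cKO mice (*Stra8-iCre-Ctcf* f/Δ) one *Ctcf* allele is excised and the other is removed by a Cre transgene under the *Stra8* promoter, which is active in spermatogonia and pre-leptotene spermatocytes. The wild-type littermates are described as f/f, wt/f or wt/wt at *Ctcf*. The mice of the study had a background that its methods spell C56BL/6J and were 12 to 15 weeks old. The promoter limits the Cre to germ cells, but with 1 allele already excised the other cells of these mice may carry a single intact copy, which the files do not show. *Ctcf* itself has no row in the table.

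For each transcript cluster, the group of probes that reads 1 transcript or gene, the table gives a log2 average of the signal in either genotype. It holds no values of single mice, so no spread between mice is known and no test between genotypes was made. Its rows were chosen by the authors for a linear fold of at least 2 and a p of 0.05, and all 7580 rows had a log2 difference of at least 1 in size. Every gene below therefore differs between the genotypes by selection, and what remains to be described is the direction and the size. Genes that the table does not list have no measured signal here, and their genotypes may have differed or not. RNA of a whole tissue cannot tell more cells of a type apart from more RNA per cell.

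The mammalian testis is known as an immune-privileged site, where Sertoli cells separate the later germ cells from the blood and macrophages live between and around the tubules. Cells show fragments of their own proteins on MHC class I molecules and, in specialized cells, fragments of ingested proteins on MHC class II molecules. Complement is a cascade of plasma proteases and opsonins held in check by inhibitors on cell surfaces, and interferons induce a program of antiviral proteins through response elements in promoters. Chemokines and other chemotactic signals direct the migration of leukocytes, although many chemotactic proteins also act in other tissues.

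Of the 133 immune genes, 102 were higher and 31 were lower in *Ctcf*-cKO tubules, so that 76.7% were higher. Of all listed coding genes, 38.7% were higher and 61.3% were lower, and of those with any biological process term 40.0% were higher and 60.0% lower. The median difference of *Ctcf*-cKO minus wild-type was 1.22 for the immune genes and -1.11 for all coding genes on the log2 scale. Within a direction the median was 1.43 for the higher immune genes against 1.33 for all higher coding genes and -1.25 against -1.29 for the lower ones. A linear fold of 3 was reached by 34 higher and 2 lower immune genes, which is 25.6% and 1.5% of them, and in all coding genes by 10.3% higher and 7.98% lower. Of the higher genes alone 33.3% of the immune genes and 26.7% of all coding genes passed it, and of the lower genes 2 of 31 and 319 of 2450 did. Measured from the median of all rows, -1.15 on the log2 scale, in place of 0, 8 of the 31 lower immune genes (25.8%) came to lie above it, those with the smallest differences, as did 23.4% of all lower coding genes. Higher genes cannot turn under this shift. The members were found in the table only because they had changed, so the comparison describes which way the changed immune genes lie and not how many immune genes of the genome changed.

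**Figure D1:**
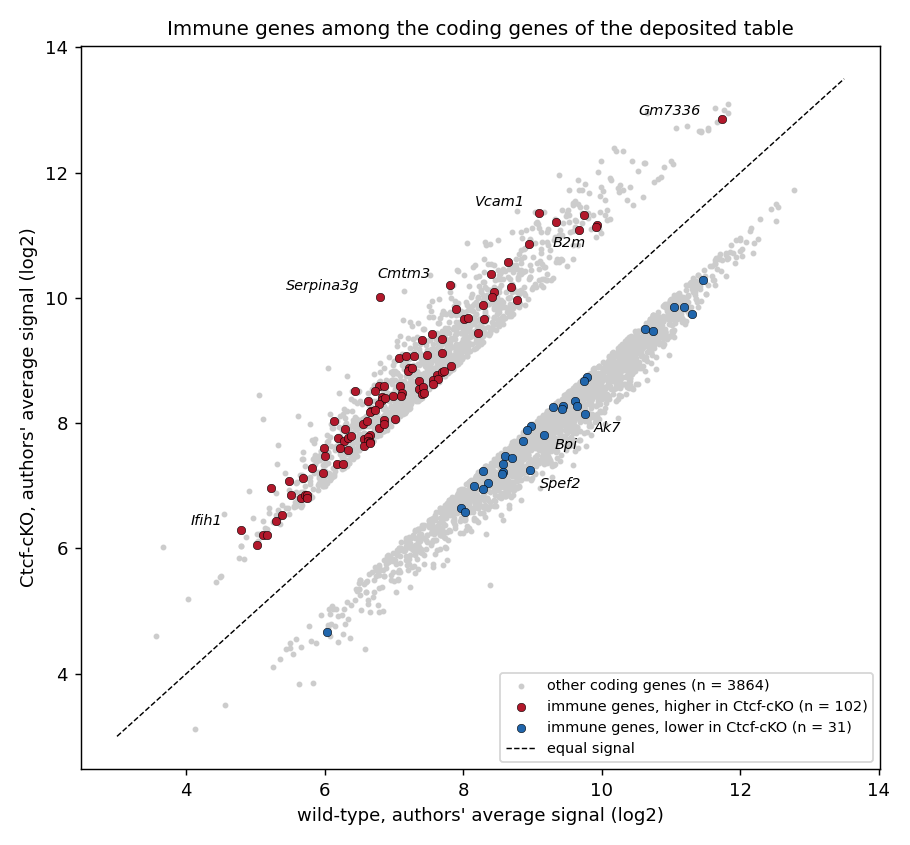
Average log2 signal of each gene in wild-type (horizontal axis) and Ctcf-cKO (vertical axis) as the authors' table gives it, with immune genes coloured by direction and other coding genes in grey; each point is 1 gene and no error is known. The 102 higher immune genes lie above the dashed line of equal signal and the 31 lower ones below it, and the empty band between them is the range that the table does not list.

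**Figure D2:**
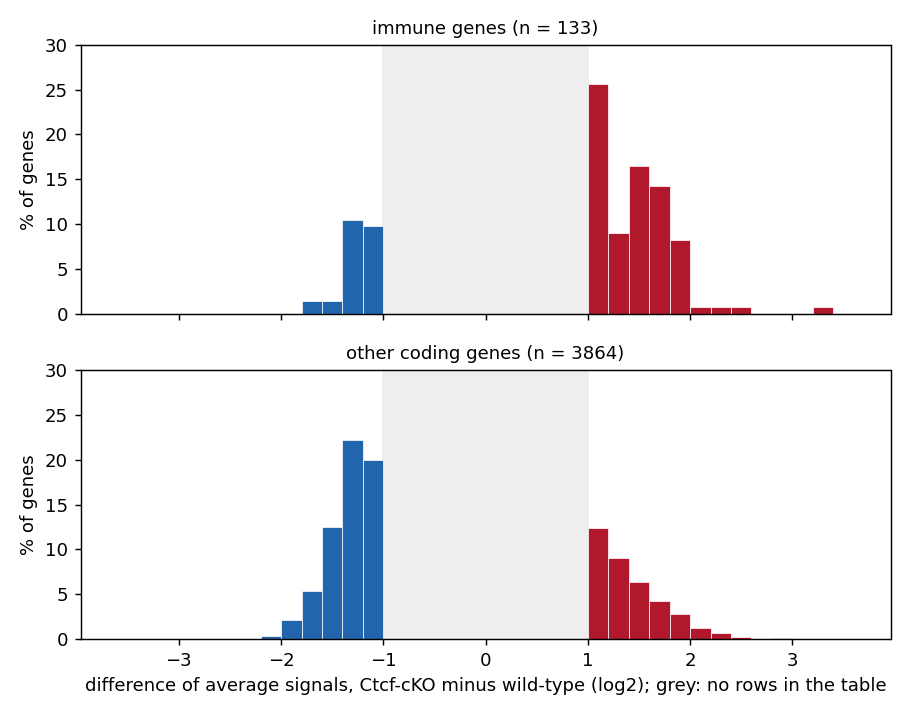
Share of genes (percent) by the difference of average signals, Ctcf-cKO minus wild-type on the log2 scale, for the 133 immune genes (top) and the 3864 other coding genes (bottom). Most immune genes lie on the side of higher signal in Ctcf-cKO, whereas most other coding genes lie on the side of lower signal.

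The direction differed somewhat with the kind of term. All 9 genes with an antigen processing term were higher, with a median difference of 1.61. Of 15 genes with a response to virus, 13 were higher, and of 45 with an inflammatory term, 36 were. The terms that name an interferon had 10 of 13 genes higher and those that name an immune process 51 of 68. Chemotaxis had the largest share of lower genes, with 17 of 25 higher and 8 lower. These groups overlap, since 35 genes carry words from more than 1 of the 6 groups.

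To show what the promoters of interferon-responsive members look like, the bases before the transcription start were read from RefSeq promoter sequences of GRCm38.p6, which held 101 of the 133 members. The letters of an interferon-stimulated response element, GAAA and again GAAA with any 2 bases between, were sought on both strands within 250 bases before the start. They stood in the promoters of *B2m*, *Ctss*, *Cybb*, *Gbp7*, *Ifitm2*, *Parp4* and *Trim26*, 7 of 101 members (6.93%), against 3.05% of all 27025 promoters and 2.64% of those of the coding genes in the table. All 7 genes were higher in *Ctcf*-cKO, as were 78 of the 101 members with a promoter. The 5 of them that belong to the lists of antigen presentation and interferon genes are printed 5′ to 3′ on the strand of the gene, with the matched letters in capitals; for *B2m* the second run in capitals is a match, on the other strand, of the kappa-B letters GGGA and TTTCC with any base between, and for *Gbp7* the first and second runs are matches of the letters TTCNNNGAA of a gamma-activated site. In *Trim26* a pair of reverse-strand matches of the response element overlap and form 1 run.
*B2m*, chr2:122147518-122147600, plus strand: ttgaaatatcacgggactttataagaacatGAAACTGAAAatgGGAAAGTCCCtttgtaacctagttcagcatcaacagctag
*Ctss*, chr3:95526735-95526785, plus strand: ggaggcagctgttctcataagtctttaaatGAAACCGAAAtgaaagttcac
*Gbp7*, chr3:142530200-142530322, plus strand: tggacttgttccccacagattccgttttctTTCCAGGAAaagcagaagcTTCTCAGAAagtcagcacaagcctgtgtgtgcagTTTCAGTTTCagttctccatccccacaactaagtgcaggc
*Ifitm2*, chr7:140955968-140956037, minus strand: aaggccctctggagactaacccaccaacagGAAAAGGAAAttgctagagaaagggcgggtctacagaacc
*Trim26*, chr17:36836956-36837031, plus strand: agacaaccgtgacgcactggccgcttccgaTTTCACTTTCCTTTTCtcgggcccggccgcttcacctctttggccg
The letters of the response element lie 139 to 130 bases before the start in *B2m* and 21 to 12 bases before it in *Ctss*. The letters of the gamma-activated site were found in 8 of 101 members (7.92%) and 7.14% of all promoters, and those of the kappa-B site in *B2m* alone, against 0.344% of all promoters. The letters of a core of the CTCF motif, CC, C, AGG and GGC with any base between neighbours, were found in 0 of the 101 members and 1.06% of all promoters. A match of letters is a description of the sequence and not of a bound factor, and with so few matches the shares are imprecise.

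The genes of MHC class I presentation with a row were all higher, 5 of 5. *B2m*, on chromosome 2 from 122147686 to 122153083, encodes the invariant light chain of class I molecules. Its average signal was 9.34 in wild-type tubules and 11.22 in *Ctcf*-cKO tubules, a log2 difference of 1.88 or a 3.68-fold higher signal. *Fcgrt*, the heavy chain of the neonatal Fc receptor, which pairs with the same light chain, averaged 7.48 and 9.09. *Mr1*, a class I-like molecule that shows vitamin metabolites to T cells, averaged 6.83 and 8.37. The aminopeptidase *Erap1*, which trims peptides for class I, averaged 5.82 and 7.28, and *Psme1*, a subunit of the interferon-inducible proteasome activator, 7.69 and 8.82. The classical class I and class II genes of the H2 complex had no row, with 0 rows of any class naming an H2 gene, so the classical heavy chains that *B2m* pairs with have no value here. *Hfe*, a further class I-like molecule, and *Unc93b1*, which escorts Toll-like receptors to endosomes, differed less, by 1.05 and 1.08 on the log2 scale.

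Of the genes that prepare antigen for class II molecules, *Ifi30*, a lysosomal thiol reductase, averaged 7.26 in wild-type tubules and 8.89 in *Ctcf*-cKO tubules, and *Ctss*, the cathepsin that degrades the invariant chain, 6.22 and 7.61. Further class II genes of the list were in the table without a term that made them members. *Cd74*, the invariant chain itself, averaged 7.07 and 8.60, *Lgmn*, an asparaginyl endopeptidase, 8.83 and 11.05, and *Ctsl*, a cathepsin, 10.44 and 12.18. All 5 class II genes with a row were thus higher, with differences that had a median of 1.63. The transactivator *Ciita* had no row.

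Complement was the largest list, with 13 members of which 12 were higher and 1 was lower, and *Daf2*, a further complement regulator among the immune genes that the list does not hold under this symbol, was lower too. The proteases of the first component lie together on chromosome 6 between 124512405 and 124636085, and all 4 were higher. *C1ra* averaged 6.82 in wild-type tubules and 8.42 in *Ctcf*-cKO tubules. Its paralog *C1rb* averaged 6.62 and 8.36. *C1s1* averaged 6.87 and 8.40, and its paralog *C1s2* 6.73 and 8.21. The differences of the 4 ran from 1.48 to 1.74 on the log2 scale. The paralogs are close in sequence and the probes were not examined, so their rows may read part of the same RNA.

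*C1qb*, a chain of the recognition subunit that macrophages make, averaged 6.99 and 8.44. The next protease of the cascade, *C2*, averaged 7.18 and 9.07, a 3.71-fold higher signal, and the central component *C3* averaged 7.40 and 8.46, the smallest difference among the higher complement genes at 1.06. *Masp1*, a protease of the lectin pathway, averaged 6.55 and 7.98. *C7*, a component of the membrane attack complex, averaged 9.74 and 11.32. The components of the cascade named here were all higher, with *C7* the only one of the membrane attack complex.

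The regulators of complement lay in both directions. *Serping1*, the C1 inhibitor, had the largest difference of the group, from 8.64 to 10.57 (3.81-fold). *Cr1l*, a membrane-bound regulator also known as Crry, averaged 6.85 and 8.60. *Cd55*, the decay-accelerating factor of cell membranes, was the lower member of the list, at 9.62 in wild-type tubules and 8.36 in *Ctcf*-cKO tubules. Its neighbour on chromosome 1, *Daf2*, a second gene of decay-accelerating factor, also averaged lower, at 11.46 and 10.29. Of 6 complement genes that were not members, 3 were higher, among them *Clu* (11.03 and 12.14) and *Cd59a* (8.49 and 9.81), and 3 were lower, among them *Cd46* (8.17 and 6.81), a further membrane-bound regulator.

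**Figure D3:**
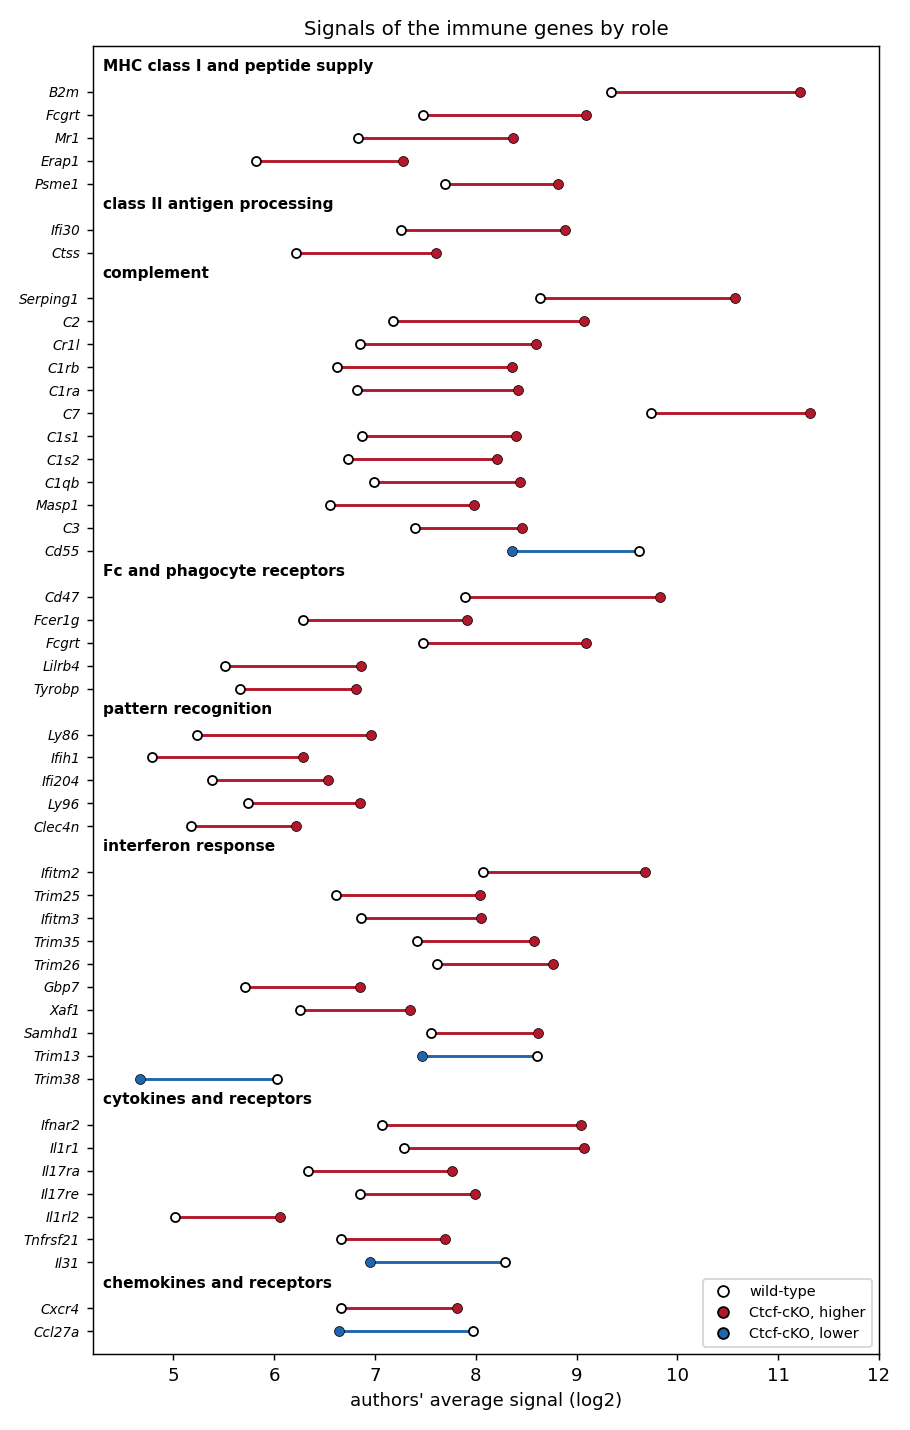
Average log2 signals of the members that belong to 8 lists of immune genes, apart from 1 complement gene, with an open point for wild-type and a filled point for Ctcf-cKO joined by a line; no error is known, and Fcgrt stands in 2 lists. The filled point lies to the right of the open one in all genes of antigen presentation, Fc and phagocyte receptors and pattern recognition, and to the left in Cd55, Trim13, Trim38, Il31 and Ccl27a.

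The members on the list of Fc and phagocyte receptors were all higher, 5 of 5. *Fcgrt*, counted above under class I, is 1 of them, and *Cd47* is a signal to phagocytes. *Cd47*, the surface protein that inhibits engulfment by macrophages, averaged 7.89 in wild-type tubules and 9.83 in *Ctcf*-cKO tubules, a 3.84-fold higher signal. *Fcer1g*, the signalling chain shared by Fc receptors, averaged 6.29 and 7.91. *Tyrobp*, a signalling adaptor of myeloid receptors, averaged 5.66 and 6.81, and the inhibitory receptor *Lilrb4* 5.51 and 6.86. A further 9 genes of this list were not members, and all were higher. They include the receptors *Mertk* (7.29 and 9.14), *Axl* (8.49 and 10.01) and *Tyro3* (7.90 and 9.16), which bind dying cells through the bridging ligands *Gas6* (8.75 and 9.94) and *Pros1* (7.70 and 9.47). These 5 genes are known for the uptake of apoptotic germ cells by Sertoli cells, and their differences had a median of 1.52.

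Pattern recognition, the sensing of microbial molecules, had 5 members, all higher and all with a wild-type average under 6. *Ly86*, the partner of the receptor RP105, averaged 5.23 in wild-type tubules and 6.96 in *Ctcf*-cKO tubules. *Ly96*, the lipopolysaccharide-binding partner of Toll-like receptor 4, averaged 5.74 and 6.85. *Ifih1*, a cytoplasmic sensor of viral RNA, averaged 4.79 and 6.29, *Ifi204*, a DNA-binding interferon-inducible protein, 5.38 and 6.53, and the lectin *Clec4n* 5.17 and 6.22. Signals this low may lie near the background of the array, which was not measured here. Of 9 further genes on the list, 7 were higher, among them *Lbp*, which binds lipopolysaccharide (7.53 and 9.79), *Tlr3* (5.38 and 6.69) and the adaptor *Mavs* (7.68 and 9.25). The lower ones were *Nlrp14* (9.68 and 7.87) and *Nlrp5* (7.49 and 6.38, above the median of all rows), which are known for their expression in germ cells.

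Of 10 members on the interferon list, which takes in every Trim gene, 8 were higher. The membrane proteins *Ifitm2* and *Ifitm3*, which hinder the entry of viruses, lie within 200 kb of each other on chromosome 7. *Ifitm2* averaged 8.07 in wild-type tubules and 9.68 in *Ctcf*-cKO tubules and *Ifitm3* 6.86 and 8.05. *Ifitm7*, a gene of the same family without a term of the rule, was lower, at 9.18 and 7.81. The dNTP hydrolase *Samhd1* (7.56 and 8.62) and the guanylate-binding protein *Gbp7* (5.71 and 6.85) were higher by 1.06 and 1.14 on the log2 scale. *Ifnar2*, a subunit of the receptor of type I interferons, had a larger difference than these, from 7.07 to 9.04 (3.92-fold).

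The tripartite motif family of ubiquitin ligases was split. Among the members, *Trim25*, which activates the RNA sensor RIG-I, averaged 6.61 and 8.04 and was higher together with *Trim26* and *Trim35*. *Trim38* (6.03 and 4.67) and *Trim13* (8.61 and 7.47) were lower, although *Trim13* came to lie above the median of all rows. Of 13 genes with a row whose symbol is Trim followed by a number, members or not, 5 were higher and 8 lower. This is 38.5% higher against 38.7% of all coding genes. Of the 8 lower ones, 3 (*Trim13*, *Trim37* and *Trim66*) lay above the median of all rows. *Triml1*, a gene of the interferon list outside this count, was lower too, at 9.07 and 7.60. *Mid2*, a member of this family under another symbol, was higher, at 6.38 and 7.79. Of all 21 genes with a row on the interferon list, 11 were higher and 10 lower. The list takes in every gene whose symbol begins with Trim, without regard to induction by interferon. Of the 10 lower genes, 8 were the Trim genes counted above, and the others were *Triml1* and *Ifitm7*. The share of 8 in 10 is that of the members alone.

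Cytokine receptors outnumbered cytokines among the members. *Il1r1*, the receptor of interleukin-1, averaged 7.29 in wild-type tubules and 9.07 in *Ctcf*-cKO tubules, and its neighbour *Il1rl2* 5.02 and 6.06. *Il17ra* and *Il17re*, subunits of interleukin-17 receptors, averaged 6.34 and 7.76, and 6.85 and 7.99. The death receptor *Tnfrsf21* averaged 6.66 and 7.69. *Il31*, a cytokine of T cells, was the lower member, at 8.29 and 6.95. All 18 non-members with a row on the cytokine list were higher, with a median difference of 1.58, among them *Kitl* (7.42 and 9.50), *Csf1r* (6.67 and 8.26), its ligand *Csf1* (6.59 and 7.97) and the tumour necrosis factor receptor *Tnfrsf1a* (6.93 and 8.67). Including members, 24 of 25 genes on this list were higher.

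Chemotactic genes lay in both directions. The chemokine receptor *Cxcr4* averaged 6.66 in wild-type tubules and 7.81 in *Ctcf*-cKO tubules, and its ligand *Cxcl12*, not a member, 5.95 and 7.56. *Ccl27a*, a chemokine of the skin, was lower, at 7.97 and 6.64. The rows first named *Gm3893* (9.64 and 8.27) and *Gm13306* (8.98 and 7.96, above the median of all rows), also lower, belong to the same multicopy region of chromosome 4, and the second lists *Ccl27a* and *Ccl27b* among its symbols, so these rows are not separate observations. *Defb14*, a beta-defensin with chemotactic activity, averaged 8.03 and 6.58. Of 4 beta-defensin genes with a row, 2 were lower and 2 higher.

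A single stretch of chromosome 8, from 104250861 to 104347672, held 4 chemotaxis genes of the chemokine-like factor family that differed in direction. *Cklf* averaged 9.29 in wild-type tubules and 8.26 in *Ctcf*-cKO tubules, a difference that lies above the median of all rows. *Cmtm2a*, whose row also lists *Cmtm1*, averaged 11.04 and 9.85, and *Cmtm2b* 11.19 and 9.85. These 3 genes were lower by 1.03 to 1.34 on the log2 scale. *Cmtm3*, the next gene along, averaged 7.81 and 10.21, a 5.28-fold higher signal and the second largest difference of all immune genes. Adjacent genes of 1 family thus lay in opposite directions, and no other gene of the family had a row.

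With neighbours at most 200 kb apart counted together, and the groups on chromosomes 6 and 8 included, 24 members lay in 10 groups. On chromosome 12, *Serpina3g* and *Serpina3n*, inhibitors of serine proteases of the antichymotrypsin family, were both higher. *Serpina3g*, at positions 104236242 to 104241939, had the largest difference of all immune genes, from 6.80 to 10.01, a 9.25-fold higher signal. *Serpina3n*, an acute-phase protein, averaged 7.55 and 9.42. All 4 genes of this family with a row were higher; *Serpina3c*, not a member, averaged 8.17 and 10.52. The genes of this cluster are close in sequence, and shared probes were not examined.

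The 84 members on none of the lists were 58 higher and 26 lower. Several of the higher ones act on the surface of vessels or stromal cells. *Vcam1*, the adhesion molecule that arrests leukocytes, averaged 9.10 in wild-type tubules and 11.36 in *Ctcf*-cKO tubules, a 4.79-fold higher signal. *Nt5e*, the ectoenzyme CD73 that makes adenosine, averaged 7.40 and 9.33. *Pdpn*, a mucin of stromal and lymphatic cells, averaged 7.20 and 8.83. *Adora3*, a receptor for the adenosine that CD73 makes, was lower, at 8.56 and 7.19.

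Other higher members are enzymes and signalling proteins that work in many cell types. *Gstp1*, a glutathione transferase, averaged 8.40 and 10.38, and *Gpx1*, a glutathione peroxidase, 8.95 and 10.86. The kinase *Prkd1* averaged 6.43 and 8.51, a 4.23-fold higher signal. *Pla2g4a*, the phospholipase that frees arachidonic acid for prostaglandins, averaged 5.99 and 7.61. The plasma and secreted proteins *Orm1* (5.48 and 7.08) and *Lcn2* (9.93 and 11.17) are known as acute-phase proteins. *Cybb*, the catalytic subunit of the phagocyte oxidase, averaged 5.11 and 6.21. The row with the highest signal, first named *Gm7336* (11.73 and 12.86), also lists *Gapdh*, whose annotation it carries.

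The lower members include genes that are better known from germ cells than from immunity. *Spef2*, a protein of the sperm flagellum, had the largest negative difference, from 8.97 to 7.25, and carries the term immune system development. *Ak7*, an adenylate kinase of motile cilia, averaged 9.76 and 8.15 and carries a term for the inflammatory response to an antigenic stimulus. These were the 2 lower immune genes past a fold of 3. *4933415F23Rik* averaged 11.31 and 9.74. *Chst1*, a sulfotransferase of glycans, averaged 8.58 and 7.22. *Bpi*, which binds bacterial lipopolysaccharide, averaged 9.16 and 7.82.

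By the annotated place of the protein, immune genes were mostly higher in each component examined. Of 86 immune genes with a component term of the extracellular region or space, the plasma membrane or the cell surface, 71 were higher (82.6%), against 505 of 718 coding genes with these terms (70.3%). Of the 46 immune genes with other component terms only, 30 were higher (65.2%), against 902 of 2518 coding genes with other component terms only (35.8%). At the plasma membrane alone 41 of 45 immune genes were higher, and 69.9% of all coding genes there. The component lysosome was carried by 6 immune genes, all higher, and 90.4% of all coding genes with it were higher. For the cytoplasm 43 of 53 immune genes were higher (81.1%, against 54.1% of all coding genes), and for the nucleus 29 of 42 (69.0%, against 48.9%). In the extracellular space the order turned, with 75.0% of 32 immune genes and 85.2% of all coding genes higher.

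Markers of the cell types of the tissue also had rows, higher for somatic cells and most macrophage markers and lower for meiotic and later germ cells, and the part of these cell types in the result was not tested. The same selection for a fold of 2 applied to these rows, and sums of their signals add probes of different brightness. Of 17 macrophage markers (*Adgre1* and its older symbol *Emr1* counted as 1), 9 had a row, of which 8 were higher and *Aif1* was lower, at 10.17 and 8.81. *Mertk*, named above for the uptake of germ cells by Sertoli cells, is 1 of the 8. *Mpeg1*, a pore-forming protein of macrophages, averaged 6.05 in wild-type tubules and 8.89 in *Ctcf*-cKO tubules, and *Lyz2*, lysozyme, 7.65 and 9.98. *Cd68* averaged 6.11 and 7.92, and *Lyz1* 6.76 and 8.57. *Mrc1* had the smallest difference of the higher macrophage markers, 1.09 on the log2 scale, at 8.41 and 9.50. The linear signals of the 9 rows summed to 2320 in wild-type tubules and 4500 in *Ctcf*-cKO tubules, with *Lyz2* the brightest in *Ctcf*-cKO. *Aif1* was the brightest in wild-type, and without it the sums were 1170 and 4050. *Adgre1*, *Cd163*, *Itgam*, *Cx3cr1*, *Cd14*, *C1qa*, *C1qc* and *Fcgr1* had no row. Of 8 markers of all leukocytes, only *Tyrobp* and *Cd53* had a row (5.37 and 6.52 for *Cd53*), and *Ptprc*, which encodes CD45, had none; the summed signal of both was 91.9 and 204.

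No marker had a row for T cells (0 of 10), B cells (0 of 6), natural killer cells (0 of 8), neutrophils (0 of 7), dendritic cells (0 of 7) or mast cells (0 of 6). The list of lymphocyte genes likewise had 0 members, and the 3 of its genes with a row were *Gzmn* (8.61 and 6.84) and *Igh-VJ558* (6.29 and 4.79), both lower, and *Ighv6-3* (5.44 and 6.64), which was higher. *Igh-VJ558* and *Ighv6-3* each averaged under 6 in 1 genotype, a signal that may lie near the background of the array. Markers of resident somatic cells were higher throughout where they had a row. These were 8 of 9 Leydig cell markers, with a median difference of 2.00, 10 of 12 Sertoli cell markers, with 1.66, 4 of 6 markers of peritubular myoid cells, with 1.25, and 2 of 8 endothelial markers, with 1.12. Their summed linear signals were 7980 in wild-type tubules and 29700 in *Ctcf*-cKO tubules for Leydig cells, with *Cyp17a1* the brightest in *Ctcf*-cKO, and 3950 and 14000 for Sertoli cells, brightest in *Inha*. For peritubular myoid cells, brightest in *Acta2*, they were 1760 and 4760, and for endothelial cells, brightest in *Cdh5*, 208 and 454. *Insl3*, *Amh*, *Rhox5*, *Pecam1* and *Vwf* had no row.

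Markers of germ cells in meiosis and after it were lower, 6 of 8 for primary spermatocytes with a median difference of -1.27 and 5 of 12 for spermatids with -1.06, and the others had no row. Their summed linear signals were 4520 and 1860 for spermatocytes, brightest in *Sycp2*, and 6750 and 3200 for spermatids, brightest in *Akap4*. The differences of *Dmc1* and *Sycp1* among the spermatocyte markers and of *Acr*, *Akap4* and *Prm3* among the spermatid markers lay above the median of all rows. Among the markers of spermatogonia the single row was that of *Kit* (7.81 and 10.09), which Leydig cells also express. *Acta2* is both an immune gene by its term response to virus and a marker of peritubular myoid cells, at 9.67 and 11.09.

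**Figure D4:**
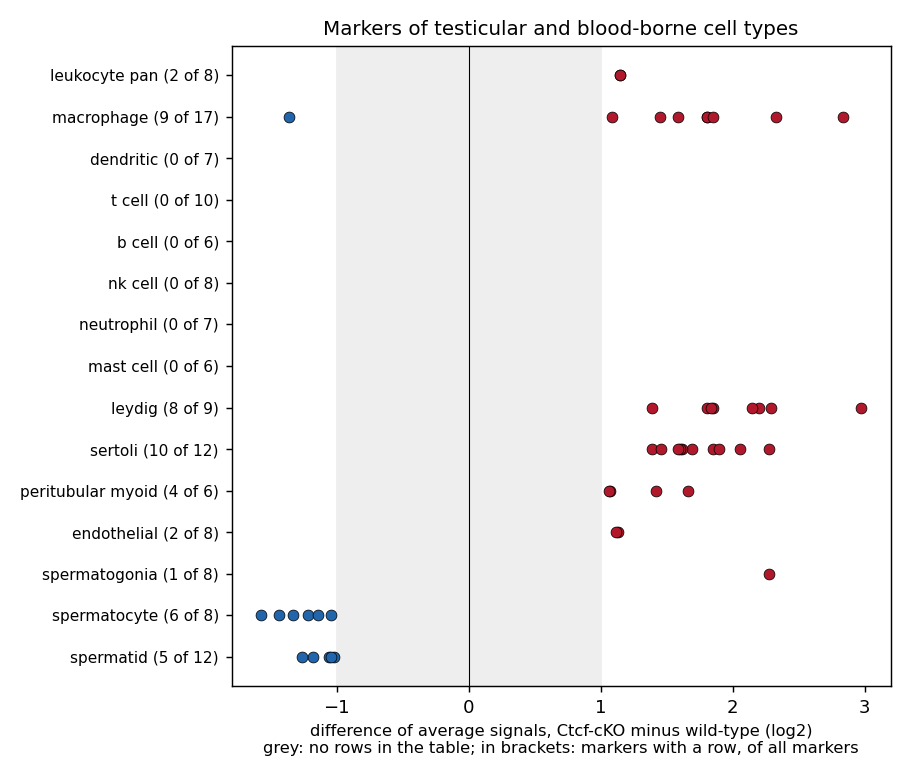
Differences of average signals, Ctcf-cKO minus wild-type on the log2 scale, for markers of 15 cell types; each point is 1 marker with a row, the brackets give how many of the markers had one, and the table lists nothing within the grey band. Markers of macrophages other than Aif1 and of Leydig, Sertoli, peritubular myoid and endothelial cells lie to the right, those of spermatocytes and spermatids to the left, and 6 types of lymphoid, myeloid and mast cells have no point.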

How the data were processed

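RNA of seminiferous tubules from 4 *Ctcf*-cKO and 3 wild-type mice was measured on GeneChip mouse transcriptome arrays. The submitters' processing notes name Affymetrix Expression Console 1.4.1, RMA, Transcriptome Analysis Console 3.0 and the build mm10. The authors' deposited table gives 1 bi-weight average per genotype on the log2 scale, with decimal commas that were read as points, and the number of probes. It also holds the authors' own folds and p-values, which were not used. Values of single arrays were not analysed here; precision is limited by the number of arrays, and averages are given to 2 decimals.

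Differences were computed as *Ctcf*-cKO minus wild-type, and linear folds from them. Only rows of the class Coding or Complex entered. No member had over 1 row, and 9 had rows with several symbols, named here by the first. No tests were made, because the rows were selected for change and the averages do not give the spread between mice. Named genes were the 10 members with the largest difference in each direction with ties, all members of the lists of class I, class II and complement (1 complement gene is counted but not reported here), the 4 largest of each other list, and leukocyte markers with a row; all further genes named were picked with their values already known. Members and lists were chosen with earlier results of these data known. *Traf3ip1*, matched to the lymphocyte list by letters alone, was left out of it; the lists of prostaglandin and leukotriene genes and of NF-kB held 1 and 0 members. Promoters were the most upstream entry of each gene. The functions were tested on simulated data. Computations used python 3.11.15, pandas 2.3.3, numpy 2.4.6, scipy 1.17.1 and matplotlib 3.10.9.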

Additional observations from a re-analysis of the deposited data

How the results depend on the processing

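No paired analysis was possible because the table holds 1 average per genotype and no values of single mice; leaving out each mouse was not run for the same reason. At a fold of 3, not 2, which by construction can only lower the counts, 34 immune genes were higher and 2 lower, a share of 94.4% higher, against 56.4% of all coding genes past this fold, and a median difference of 1.75. In the class Coding alone, which drops the Complex rows, 41 were higher and 16 lower. The higher members of the lists came to 6 in place of 12 for complement and 2 in place of 8 for the interferon list. For class I and for Fc and phagocyte receptors they came to 2 in place of 5. For pattern recognition they came to 3 in place of 5. With terms that begin with the words of the rule, 62 were higher, and the median difference was 1.18. The higher cytokine members came to 2 in place of 6, and Fc and phagocyte receptors to 3 in place of 5. Those of class II came to 1 in place of 2. With every symbol of a row counted, 105 were higher and 44 lower, a share of 70.5% higher, and the median was 1.16. The median was 1.23 without rows of over 1 symbol, an alternative chosen after seeing the data. Setting the zero at the median over the whole table, which is -1.15 on the log2 scale and not that of the whole array, since every row was selected for its change, gave a median of 2.37. It put 8 of the 31 lower immune genes above 0; these 8 include *Trim13*, *Cklf* and *Gm13306*, and none of the genes named by rule. Including genes with sterol terms kept the counts within 1.5 times; a minimum log2 signal of 6 in the brighter genotype and the choice of row could not change them, since 0 members were under 6 in both genotypes and 0 had over 1 row. Of the higher immune genes 17 had a wild-type average under 6, where the background of the array, which was not analysed here, could set the signal.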

Other observations

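Non-coding transcript clusters overlapped some of the immune genes. Outside the multicopy region of chromosome 4, 12 non-coding rows on the same strand overlapped 6 immune genes, and the direction was that of the gene in all 12. Of these, 5 lay on *Prkd1*, where the non-coding rows differed by 1.15 to 2.16 on the log2 scale and the gene by 2.08. Whether rows that overlap on a strand read the same RNA was not tested. On the opposite strand 5 rows overlapped 5 genes, and 4 had the direction of the gene; the share among all overlapping rows of the table was not computed. The remaining row was *1700001G11Rik*, opposite *Trim35*, which averaged 8.26 in wild-type tubules and 7.23 in *Ctcf*-cKO tubules, a difference above the median of all rows, while *Trim35* averaged 7.42 and 8.58. Opposite *Cd55* and *Daf2*, *Gm16083* (6.28 and 5.12) and *Gm15674* (8.10 and 6.51) were lower like the genes themselves.

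The 3 genes that the sterol rule left out were all higher in *Ctcf*-cKO. *Lipa*, the lysosomal acid lipase, averaged 7.23 and 9.62, a 5.24-fold higher signal. *Il1a*, the cytokine interleukin-1 alpha, whose receptor gene *Il1r1* is among the immune genes, averaged 4.86 and 6.18, and *Ephx2*, an epoxide hydrolase, 5.65 and 6.75.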
